A study of Homo sapiens with 83 samples.

Results

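The genes that license replication origins and build the replication fork were followed in 2 human neuroblastoma cell lines in which N-MYC could be switched on. The members were the 47 genes, of 60237 in the table, whose symbol stood on a list of the origin recognition complex, the helicase loaders, the MCM2-7 helicase, the firing factors, the replicative polymerases, the clamp and its loader, the enzymes of the lagging strand, RPA and the deoxynucleotide supply. Each symbol matched 1 entry, and all 47 passed the filter on low values in both lines. Polyadenylated RNA had been sequenced from cell populations in culture, and the values are TPM, transcript levels scaled for gene length and to a fixed total per library.

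Both lines, SHEP and SKNAS, carried N-MYC-ER, in which N-MYC is joined to the hormone-binding part of the estrogen receptor. The protein is made at all times and acts in the nucleus after 4-hydroxytamoxifen (4OHT) is added. MYC-ON cells received 4OHT and MYC-OFF cells received the ethanol vehicle, and all 4 groups were then given dexamethasone to bring their clocks to a common phase. Circadian time (CT) counts the hours since dexamethasone, and libraries were made every 4 h from CT24 to CT76. Per the study's methods, 4OHT or ethanol was added a day before dexamethasone, so CT24 is not the first day of N-MYC-ER activity. Effects of CT, of hours since 4OHT and of hours in culture cannot be told apart. SHEP had 2 replicate experiments, which together gave 28 libraries per condition. SKNAS had 1 experiment, with 14 MYC-OFF libraries and 13 MYC-ON libraries, the last at CT72. The libraries of 1 experiment are serial samples of that experiment, so the p-values measure the spread between time points more than between experiments. The fusion is driven constantly, so MYC-OFF cells hold the N-MYC-ER transcript as well, and the MYC-OFF state lacks 4OHT and not the fusion.

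The MYCN transcript, which includes the fusion, was between 406 and 688 TPM in SHEP MYC-OFF and between 255 and 515 TPM in SHEP MYC-ON. Its level therefore does not check the labels, since 4OHT is given to move the fusion protein and not to raise its transcript. In SKNAS it ran from 29.1 to 987 TPM in MYC-OFF and from 13.1 to 1046 TPM in MYC-ON. Of 8 markers of mesenchymal neuroblastoma cells, all 8 passed the filter in each line, while of 8 markers of adrenergic cells 3 passed it in SHEP and 5 in SKNAS. The SHEP library medians of log2(TPM + 1) lay between 3.93 and 4.17, and their mean in MYC-ON went from 4.08 at CT24 to CT36 to 3.98 from CT64 on. The MYC-ON libraries of replicate 2 at CT64, CT68 and CT72 stood apart with 24697, 24896 and 25484 genes above 0, against 21726 to 24203 in the other SHEP libraries. The SKNAS medians ranged from 2.76 to 4.38, and 4 of 14 libraries without 4OHT and 10 of 13 with it lay below 3.8, so the SKNAS calls are given beside those on rescaled values.

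Replication begins with licensing. In G1 the origin recognition complex (ORC1 to ORC6) marks an origin, and CDC6 and CDT1 load the ring-shaped MCM2-7 helicase there, while geminin (GMNN) binds CDT1 and holds licensing back after S phase starts. The DBF4-CDC7 kinase, MCM10, CDC45 and the GINS complex then turn the loaded ring into a running helicase, primase and polymerase alpha lay down primers, polymerases epsilon and delta extend them on the PCNA clamp, and FEN1 and LIG1 trim and seal the Okazaki fragments. Most of these genes are classical targets of the E2F factors and are transcribed chiefly from late G1 into S phase. They are widely used as markers of proliferating cells. MYC binds CACGTG sites and is known to bind some of their promoters.

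The promoters are shown first, because an E2F motif recurs among the members. RefSeq sequence (GRCh38.p14) from 250 bases before to 50 bases after the start was available for 41 of the 47 members (the others were MCM4, MCM5, GINS4, POLD3, RPA2 and RPA3). It was searched on both strands for the E2F words TTTGGCGC, TTTCGCGC, TTTCCCGC and TTTGCCGC, for the E-box CACGTG and for CCAAT, and overlapping matches were counted separately. An E2F word stood in 18 of the 41 windows (43.9%), against 3.33% of 27305 promoters of the same length. An E-box stood in 5 windows (12.2% against 7.43% of all promoters) and a CCAAT word in 22 (53.7% against 35.7%). Each stretch below holds the 120 bases just before the start, written 5′ to 3′ on the gene's strand. E2F words and E-boxes are in capitals. The stretches were picked by hand as examples, so they do not show how often a motif occurs among the members. The first 7 belong to members called lower in the linear fit over the SHEP MYC-ON course, described below, and the last 3 to members not called lower. They lie at chr2:135876444-135876563 (minus strand) for MCM6, chr7:100101398-100101517 (minus strand) for MCM7, chr20:5126623-5126742 (minus strand) for PCNA, chr11:65261842-65261961 (plus strand) for POLA2, chr18:657533-657652 (plus strand) for TYMS, chr16:85688955-85689074 (minus strand) for GINS2, chr11:61792791-61792910 (plus strand) for FEN1, chr4:39366363-39366482 (minus strand) for RFC1, chr2:200963661-200963780 (minus strand) for ORC2 and chr6:87590015-87590134 (plus strand) for ORC3.
MCM6: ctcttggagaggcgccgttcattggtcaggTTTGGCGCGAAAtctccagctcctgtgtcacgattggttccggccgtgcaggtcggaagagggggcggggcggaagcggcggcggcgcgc
MCM7: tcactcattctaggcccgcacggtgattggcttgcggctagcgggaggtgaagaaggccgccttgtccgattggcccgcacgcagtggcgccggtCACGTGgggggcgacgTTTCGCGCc
PCNA: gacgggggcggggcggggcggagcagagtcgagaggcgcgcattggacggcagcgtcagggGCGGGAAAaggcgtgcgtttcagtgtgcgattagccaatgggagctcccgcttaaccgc
POLA2: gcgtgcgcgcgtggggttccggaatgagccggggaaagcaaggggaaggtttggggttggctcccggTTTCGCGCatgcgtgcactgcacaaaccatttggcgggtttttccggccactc
TYMS: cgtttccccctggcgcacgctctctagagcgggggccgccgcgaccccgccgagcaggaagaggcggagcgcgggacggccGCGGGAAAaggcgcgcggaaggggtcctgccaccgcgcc
GINS2: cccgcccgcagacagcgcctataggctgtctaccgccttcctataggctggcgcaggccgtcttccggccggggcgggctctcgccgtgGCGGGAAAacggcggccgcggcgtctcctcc
FEN1: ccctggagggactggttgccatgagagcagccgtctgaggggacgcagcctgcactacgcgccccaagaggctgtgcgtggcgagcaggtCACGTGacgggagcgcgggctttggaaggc
RFC1: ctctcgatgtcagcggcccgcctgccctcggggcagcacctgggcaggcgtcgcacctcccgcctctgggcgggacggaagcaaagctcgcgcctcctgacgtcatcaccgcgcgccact
ORC2: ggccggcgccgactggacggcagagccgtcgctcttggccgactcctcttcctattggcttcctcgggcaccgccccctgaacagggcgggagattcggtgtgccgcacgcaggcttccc
ORC3: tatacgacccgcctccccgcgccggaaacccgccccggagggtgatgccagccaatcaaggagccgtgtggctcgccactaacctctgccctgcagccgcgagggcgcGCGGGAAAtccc

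In these stretches MCM6 held 2 overlapping E2F words on opposite strands, MCM7 an E-box and an E2F word close to the start, and FEN1 an E-box alone. An E2F word stood in 17 of the 35 windows of members called lower over the SHEP MYC-ON course and in 1 of the 6 windows of the other members, that of ORC3. An E-box stood in 5 of the 35 and 0 of the 6, and a CCAAT word in 19 and 3, and with 6 windows no difference between these sets was tested. A match is a string of letters and not a measured binding site, and where none was found only these letters were missing from this window.

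The members spanned a wide range of levels. In SHEP MYC-OFF the group means ran from 7.75 TPM for CDC7, the kinase that fires origins, to 179 TPM for TYMS, which makes thymidylate. The lowest, median and highest SHEP MYC-OFF libraries held 134, 166 and 208 TPM of MCM7 and 48.9, 70.6 and 78.8 TPM of MCM5, the most and least abundant helicase subunits over all libraries. In the origin recognition complex the corresponding values were 26.8, 33.8 and 46.9 TPM for ORC4 and 5.36, 8.52 and 10.8 TPM for ORC1, its ATPase subunit. Transcripts of subunits of the same complex thus stood at different levels.

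Among the loaders, geminin stood at 35.9, 42.7 and 51.8 TPM and CDT1, which it inhibits, at 17.4, 25.4 and 35.6 TPM. The 2 parts of the firing kinase differed, with 29.2, 42.7 and 51.4 TPM for the activator DBF4 and 5.48, 7.77 and 10.1 TPM for CDC7. PRIM1, the catalytic primase subunit, stood at 19.95, 27.1 and 33.5 TPM and POLA1, the catalytic subunit of polymerase alpha, at 7.61, 10.8 and 13.4 TPM. POLD2, an accessory subunit of polymerase delta, reached 152, 170.5 and 194 TPM while POLD3 of the same enzyme had 7.105, 10.1 and 12.95 TPM. Within each of these pairs the SHEP MYC-OFF ranges did not overlap.

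PCNA, the clamp, had 133, 177 and 219 TPM against 10.96, 13.5 and 18.8 TPM for RFC5, a subunit of its loader. FEN1 had 61.97, 89.9 and 111 TPM and LIG1 18.7, 24.2 and 32.7 TPM. RPA3 had 52.4, 65.8 and 80.7 TPM and RPA2 36.6, 45.6 and 51.4 TPM. TYMS had 145, 176 and 223 TPM and RRM1, the large subunit of ribonucleotide reductase, 37.4, 54.7 and 69.2 TPM. In SKNAS MYC-OFF most members stood higher than in SHEP MYC-OFF, such as MCM7 at 193, 338 and 393 TPM, RPA3 at 90.3, 119 and 270.1 TPM and RRM1 at 62.6, 111 and 156 TPM, whereas MCM5 at 15.01, 41.3 and 46.8 TPM stood lower. The level difference between lines was not tested, since the lines were separate experiments.

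Taken over the whole course, SHEP MYC-ON and MYC-OFF differed in both directions. Condition was tested in limma on log2(TPM + 1) with CT as a factor, and a gene was called when its p, adjusted by Benjamini-Hochberg over all genes tested, was no higher than 0.05 and its log2 change was 0.15 or more in size. Of the 47 members, 20 were higher and 7 were lower in MYC-ON. Over all 14362 genes tested 33% were higher and 38.9% lower, so the members' share of higher calls lay somewhat above the background and their share of lower calls well below it. The members' median change was 0.11 on the log2 scale and that of all genes -0.036.

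POLD2 was the clearest rise. Its lowest, median and highest libraries were 152, 170.5 and 194 TPM in MYC-OFF and 229, 263 and 297 TPM in MYC-ON, without overlap, and MYC-ON was higher in 28 of 28 pairs of libraries with the same CT and replicate. The log2 change was 0.59 ± 0.028 (SE, adjusted p = 1.07e-23). ORC4 went from 26.8, 33.8 and 46.9 TPM to 38.4, 54.8 and 71.1 TPM, again higher in 28 of 28 pairs although the ranges overlapped, with a log2 change of 0.66 ± 0.053 (SE, adjusted p = 2.41e-15).

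MCM6, a subunit of the helicase, had 34.6, 44.6 and 49.8 TPM in MYC-OFF and 36.2, 72.4 and 90.5 TPM in MYC-ON, a log2 change of 0.61 ± 0.067 (SE, adjusted p = 2.48e-11), with 24 of 28 pairs higher. DBF4 had 29.2, 42.7 and 51.4 TPM and 44.6, 62.8 and 75.3 TPM, a log2 change of 0.57 ± 0.050 (SE, adjusted p = 5.76e-14), with 26 of 28 pairs higher. The share of higher calls differed by role, against 33% of all genes. It was 5 of 6 for the clamp and its loader, 4 of 5 for polymerases delta and epsilon and 3 of 3 for RPA. It was 3 of 6 for origin recognition, 2 of 6 for the helicase, 2 of 8 for firing and 1 of 4 for polymerase alpha and primase. Loading, lagging strand and deoxynucleotide genes had 0. From CT64 on, 1 clamp or loader gene, 1 gene of polymerases delta and epsilon and 0 RPA genes were called higher.

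MCM5 went the other way from its partner MCM6 in the same ring. It had 48.9, 70.6 and 78.8 TPM in MYC-OFF and 18.4, 44.3 and 67.9 TPM in MYC-ON and was lower in 28 of 28 pairs, with a log2 change of -0.74 ± 0.076 (SE, adjusted p = 5.80e-12). LIG1, the ligase, fell from 18.7, 24.2 and 32.7 TPM to 8.91, 18.1 and 21.3 TPM, lower in 27 of 28 pairs, with a log2 change of -0.56 ± 0.076 (SE, adjusted p = 6.93e-09). Thymidine kinase TK1 had 93.1, 128 and 140.4 TPM and 27.6, 105 and 154 TPM, with a log2 change of -0.50 ± 0.12 (SE, adjusted p = 0.000203). For CDC6 the values were 19.3, 27.6 and 37.99 TPM and 6.45, 23.98 and 32.5 TPM, and the log2 change was -0.37 ± 0.10 (SE, adjusted p = 0.000955). The MYC-ON ranges of TK1 and CDC6 were wider than their MYC-OFF ranges. GINS3, FEN1 and ORC1 were the other members called lower. TK1, CDC6, FEN1 and ORC1 were not called without replicate 2 or with the library median as a covariate, and FEN1, ORC1 and GINS3 were not called without replicate 1. With the covariate 2 members were called lower in all, so these 4 were not the only ones to drop out. Without replicate 2 the calls came to 13 higher and 4 lower, and without replicate 1 to 18 higher and 4 lower.

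In SHEP MYC-ON the replication genes started high and ended low. A linear change over CT was fitted with an intercept for each replicate and condition and is given as the fitted change over the 52 h from CT24 to CT76. It was called lower for 39 of the 47 members and higher for 2 in MYC-ON, against 38.7% lower and 21.1% higher of all genes tested. The members' median fitted change was -0.86 and that of all genes -0.12. In MYC-OFF 7 members were called higher and 0 lower, against 4.32% higher and 7.32% lower of all genes. The 2 slopes differed for 38 members, 37 with the more negative slope in MYC-ON and 1, RFC1, with the more positive (not called without replicate 2), against 27.3% and 16.1% of all genes. In bulk RNA, fewer cells that transcribe a gene and less RNA of it per cell cannot be told apart.

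**Figure D1:**
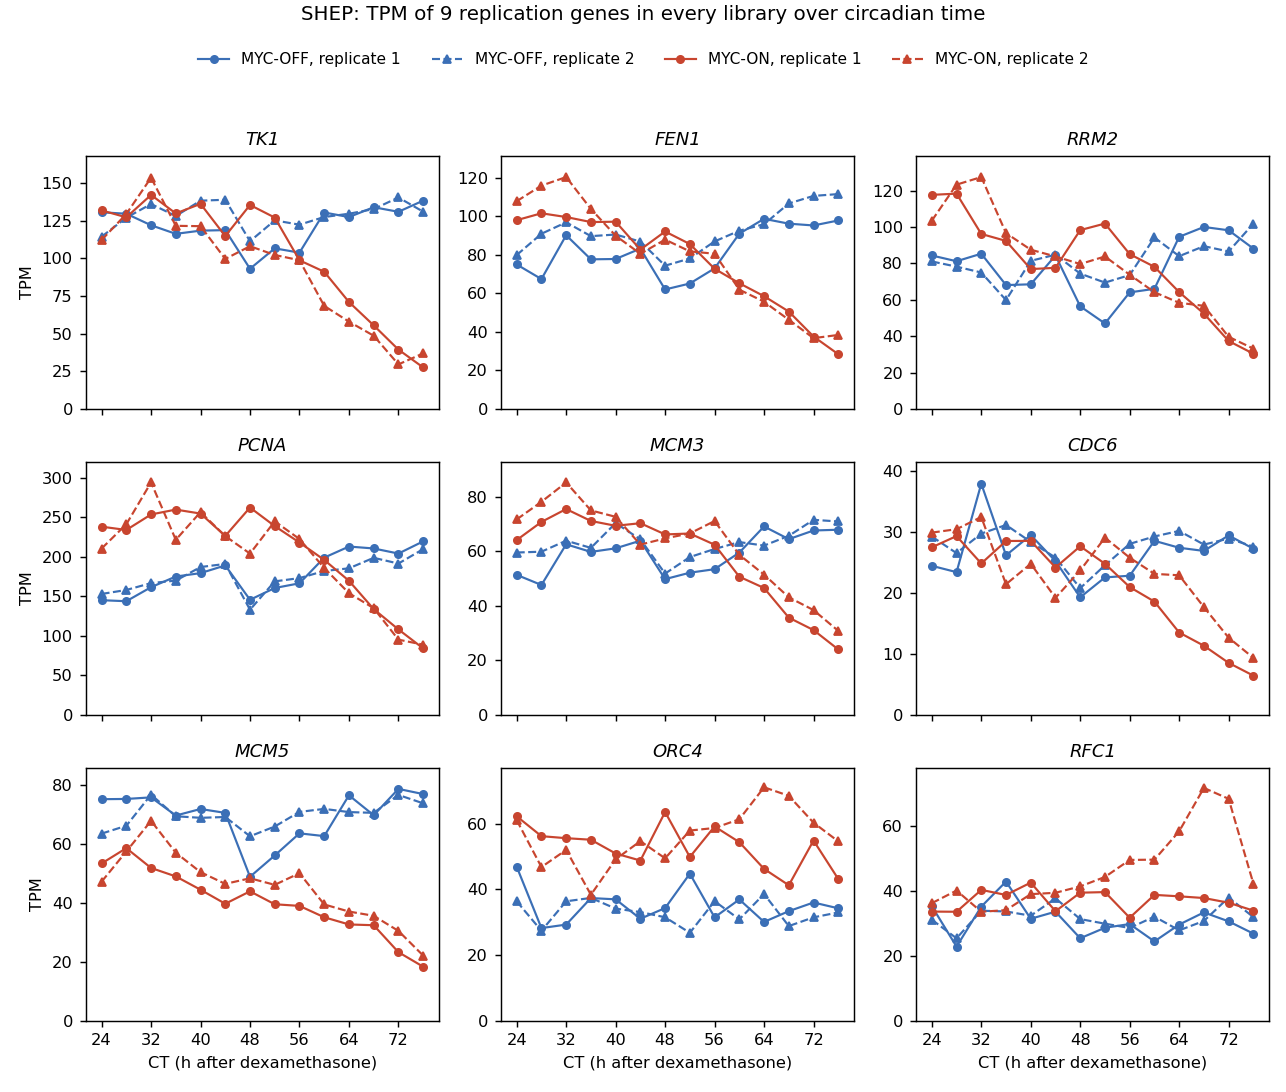
TPM (vertical axis, from 0) of 9 members in each SHEP library against CT in hours (horizontal axis), MYC-OFF in blue and MYC-ON in red, replicate 1 as circles on solid lines and replicate 2 as triangles on dashed lines. TK1, FEN1, RRM2, PCNA, MCM3 and CDC6 in MYC-ON mostly lie at or above the MYC-OFF lines early and end below them in both replicates, MCM5 is below from the start, ORC4 stays above, and RFC1 rises late in replicate 2 alone.

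TK1, which salvages thymidine, changed most. At CT24 to CT36 its 8 libraries per condition held 114 to 136 TPM in MYC-OFF and 112 to 154 TPM in MYC-ON, and from CT64 on 127 to 140.4 TPM and 27.6 to 71.03 TPM. The groups overlapped early and were fully apart late. The late MYC-ON mean was 48.4 ± 18.9 TPM in replicate 1 and 43.3 ± 12.5 TPM in replicate 2 (SD over 4 libraries each), and the fitted change over 52 h was -1.98 ± 0.16 (SE, adjusted p = 1.44e-15) in MYC-ON and 0.094 ± 0.16 (SE, adjusted p = 0.775) in MYC-OFF.

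FEN1, the flap nuclease of the lagging strand, held 67.4 to 96.8 TPM in MYC-OFF and 96.9 to 120.3 TPM in MYC-ON early, and 95.2 to 111 and 28.4 to 58.5 TPM late. The early MYC-ON libraries all lay above the early MYC-OFF libraries, by a narrow margin, and the late ones all lay below. Its fitted change was -1.62 ± 0.12 (SE, adjusted p = 2.46e-17) in MYC-ON and 0.37 ± 0.12 (SE, adjusted p = 0.0305) in MYC-OFF, and the slopes differed by -1.99 ± 0.17 (SE, adjusted p = 4.02e-14).

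RRM2, the S-phase subunit of ribonucleotide reductase, held 59.8 to 85.3 TPM in MYC-OFF and 92.3 to 127 TPM in MYC-ON early, and 83.96 to 102 and 30.4 to 64.2 TPM late. It crossed in the same way, with a fitted MYC-ON change of -1.58 ± 0.15 (SE, adjusted p = 4.19e-13). RRM1, the partner subunit, had a fitted MYC-ON change of -0.39 and its slopes did not pass the test of a difference. PCNA held 144 to 175 and 210.3 to 294 TPM early and 185 to 219 and 84.1 to 169.5 TPM late, with a fitted change of -1.33 ± 0.14 (SE, adjusted p = 7.03e-12) in MYC-ON and 0.44 ± 0.14 (SE, adjusted p = 0.0281) in MYC-OFF.

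By role, the helicase and its loaders went together. All 6 MCM2-7 genes were called lower over the MYC-ON course, from -0.91 for MCM6 to -1.24 for MCM3. All 3 loading genes were lower, with CDC6 at -1.48, geminin at -1.08 and CDT1 at -0.68. Of the 8 firing genes 7 were lower, with MCM10 at -1.34, GINS2 at -1.33, GINS3 at -1.21, GINS4 at -1.19, GINS1 at -1.03, CDC45 at -0.88 and DBF4 at -0.52, while CDC7 at -0.27 did not pass.

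The origin recognition complex split. ORC1 (-1.26), ORC6 (-1.12) and ORC5 (-0.44, not called in replicate 2 alone) were called lower, while ORC2 (0.17), ORC3 (0.040) and ORC4 (0.027) did not pass in either direction. As proteins, ORC1 is the subunit known to be made and destroyed with each cell cycle, and ORC2 to ORC5 form a core that persists. Protein was not measured here. ORC4 kept its MYC-ON excess throughout, at 34.9 ± 6.47 and 53.4 ± 7.79 TPM (SD, n = 8 each) early and 33.2 ± 3.16 and 55.02 ± 11.2 TPM late.

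Among the polymerases the MYC-ON change was -1.05 for POLE2, -0.88 for POLA1, -0.85 for POLA2, -0.66 for POLD1, -0.62 for POLE and -0.55 for PRIM1, all called lower. POLD2 at -0.15 was just past the threshold and was not called after rescaling, and PRIM2 (-0.17) and POLD3 (-0.22) did not pass. PCNA and loader subunits RFC2 to RFC5 were lower, between -0.38 for RFC4 and -1.33 for PCNA. LIG1 at -0.93, RPA1 at -0.51, RPA2 at -0.57 and TYMS at -0.86 were lower as well.

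Only RFC1 and RPA3 were called higher over the MYC-ON course. RFC1, the large subunit of the clamp loader, held 33.6 to 40.4 TPM early and 33.96 to 71.8 TPM late, with a fitted change of 0.41 ± 0.13 (SE, adjusted p = 0.00528). That rise was in 1 replicate: the late MYC-ON mean was 36.6 ± 1.97 TPM in replicate 1 and 60.2 ± 13.2 TPM in replicate 2, and without replicate 2 the fitted change was -0.013. RPA3, the smallest RPA subunit, held 51.8 to 79.3 TPM early and 59.3 to 94.6 TPM late, with overlap, a fitted change of 0.27 ± 0.10 (SE, adjusted p = 0.0218) and no call without replicate 2. Without the 3 MYC-ON libraries of replicate 2 at CT64 to CT72, which had the most genes above 0, neither was called (0.16 and 0.17). Of the 39 members called lower, 38 kept their call there. In replicate 1 alone 38 members were called lower, against 35.5% of all genes, and in replicate 2 alone 33, against 31.1%. The 38 include CDC7 and POLD3, which were not called over both replicates. Of the 39 falls 31 were called under every alternative run. ORC5, POLD2, PRIM1, RFC2 and RFC4 were not called in replicate 2 alone, POLE and RPA1 were not called in replicate 1 alone, and RRM1 was called in neither alone.

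**Figure D2:**
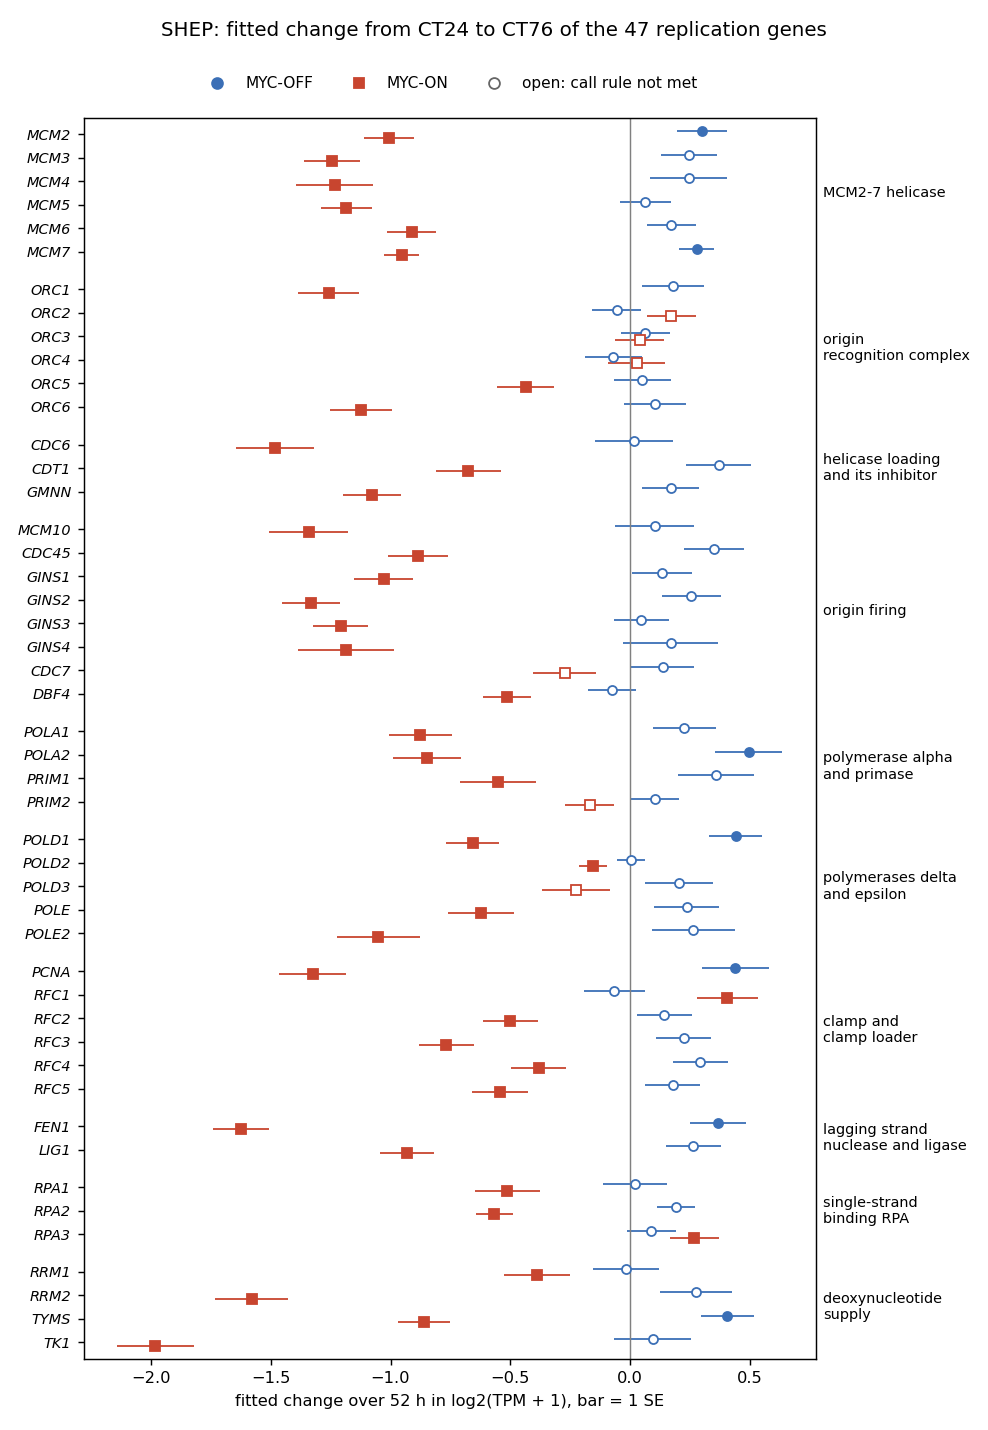
Fitted change from CT24 to CT76 in log2(TPM + 1) (horizontal axis) for each of the 47 members, grouped by role (vertical axis), in SHEP MYC-OFF (blue circles) and MYC-ON (red squares). Bars are 1 SE and open symbols did not meet the call rule. The 39 called falls are all red and lie from -0.15 for POLD2 to -1.98 for TK1, while the blue points lie between -0.077 and 0.49.

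The fall was not spread evenly over the course. From CT24 to CT52 the MYC-ON mean of the 2 replicates changed little for the median member, with a ratio of 0.996, and from CT52 to CT76 the ratio had a median of 0.538. At CT76 it was below 0.5 of its CT24 value for 22 of 47 members, with 0.264 for TK1, 0.275 for CDC6 and 0.287 for RRM2. The lowest MYC-ON library was that of CT72 or CT76 for 42 members in replicate 1 and 41 in replicate 2. In MYC-OFF it lay there for 1 and 0 members, and at CT48 or CT52 for 29 and 31 members. The ratio of CT76 to CT24 in MYC-OFF had a median of 1.22. These are descriptions with no test.

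MYC-ON therefore stood above MYC-OFF early and below it late. The MYC-ON mean was the higher one for 41 of 47 members at CT24, for 43 at CT52, for 29 at CT60, for 20 at CT64, for 8 at CT72 and for 5 at CT76. Fits restricted to the ends of the course, chosen after these values were seen, gave 34 members higher and 2 lower in MYC-ON at CT24 to CT36, against 28.8% and 32.3% of all genes, with a median of 0.34. From CT64 to CT76 they gave 5 higher and 28 lower, against 26.7% and 37.6% of all genes, with a median of -0.51. The whole-course values above average over the crossing.

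**Figure D3:**
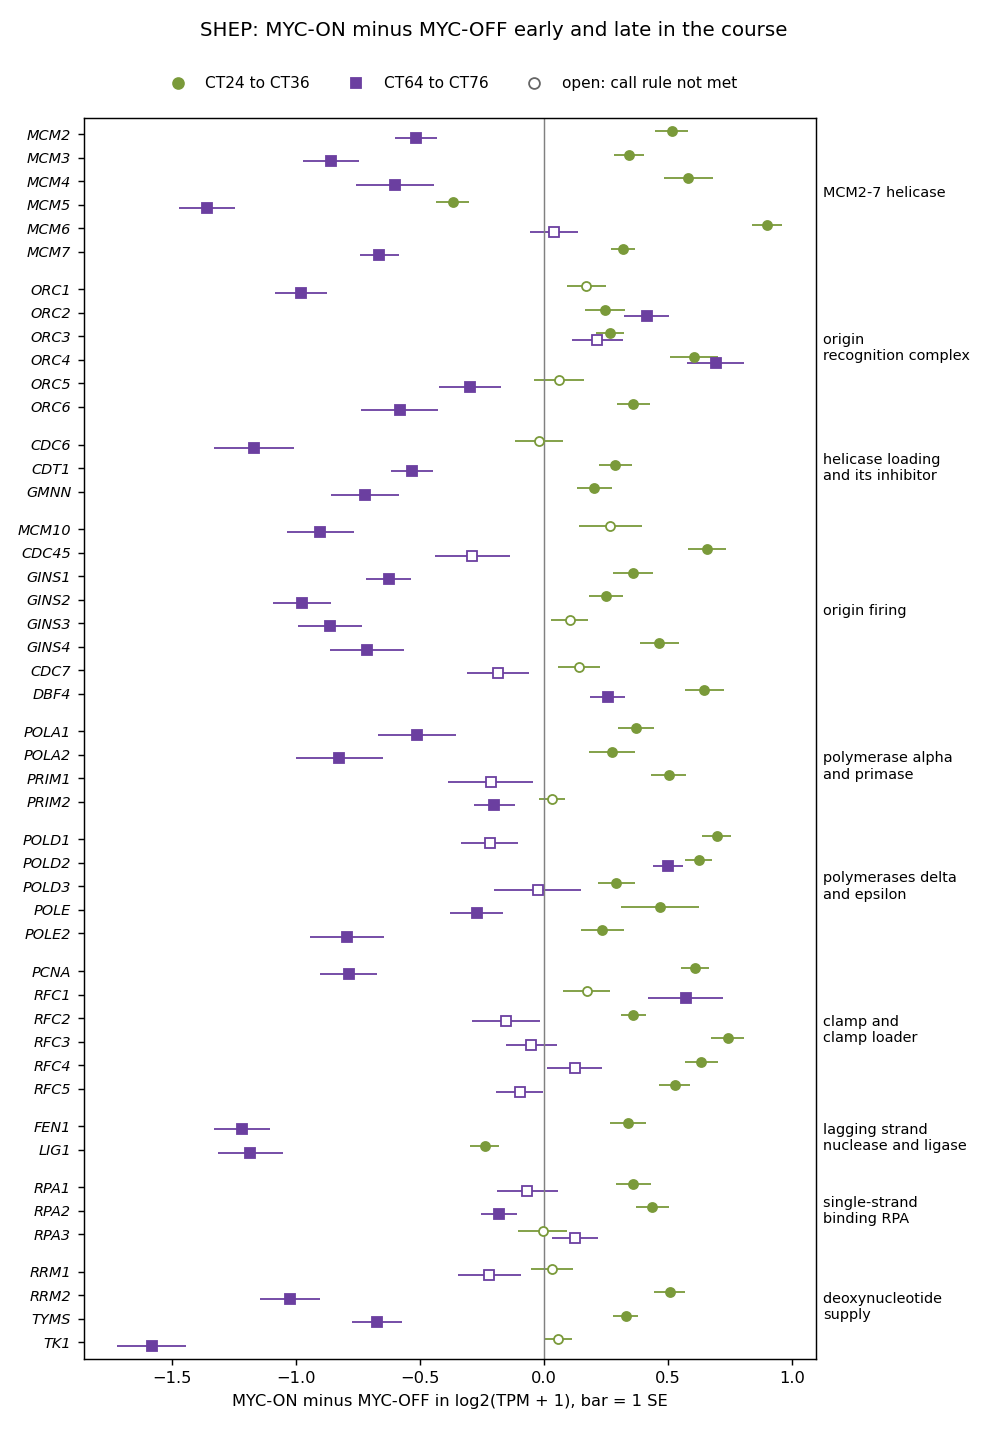
MYC-ON minus MYC-OFF in log2(TPM + 1) (horizontal axis) for each of the 47 members by role (vertical axis) in SHEP, at CT24 to CT36 (green circles) and at CT64 to CT76 (purple squares), 8 libraries per condition each. Bars are 1 SE and open symbols did not meet the call rule. Green points lie mostly to the right of 0 and purple points mostly to the left, with 34 members called higher early and 28 called lower late.

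Of the members, 19 were called higher early and lower late, against 2.28% of all genes. They came from most stages: MCM2, MCM3, MCM4 and MCM7 of the helicase, ORC6, CDT1 and geminin, GINS1, GINS2 and GINS4, POLA1, POLA2, POLE and POLE2, PCNA, FEN1, RPA2, RRM2 and TYMS. MCM3 shows the pattern at its plainest, with 58.2 ± 5.68 TPM in MYC-OFF and 73.9 ± 6.19 TPM in MYC-ON early and 67.4 ± 3.22 and 37.6 ± 9.09 TPM late (SD, n = 8 each). Its log2 difference was 0.34 ± 0.060 (SE, adjusted p = 0.000212) early and -0.86 ± 0.11 (SE, adjusted p = 1.27e-05) late.

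DBF4, ORC2, ORC4 and POLD2 were higher in both windows, against 18% of all genes, and MCM5 and LIG1 were lower in both, against 24.9%. MCM5 was 71.6 ± 4.99 TPM in MYC-OFF and 55.4 ± 6.52 TPM in MYC-ON early and 74.3 ± 3.46 and 29.05 ± 6.87 TPM late, so its deficit grew from -0.37 to -1.36. MCM6 had the largest early excess of the members, 0.90 ± 0.061 (SE, adjusted p = 2.12e-08), and no called difference late (0.041).

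Other genes of the pathway and of the cell cycle were also mostly lower, again against 38.7% of all genes. Of 34 further replication factors, such as chromatin assembly, checkpoint and fork protection genes, 26 were called lower and 2 higher over the SHEP MYC-ON course, with a median of -0.62. The 2 that rose, named after their values were seen, were POLD4 (0.79), the small subunit of polymerase delta, and RRM2B (0.50), the reductase subunit that acts outside S phase. POLD4 nonetheless stayed lower in MYC-ON in 28 of 28 pairs, with means of 76.8 TPM in MYC-OFF and 38.2 TPM in MYC-ON. RRM2B was higher in MYC-ON in 0 of 8 pairs at CT24 to CT36 and lower in 0 of 8 from CT64 on. Of 17 regulators of S phase entry 13 were lower and 2 higher. E2F1 (-1.72) and E2F2 (-1.46), both activators of these promoters, were among the lower. CDKN1A (0.28), a CDK inhibitor, and RBL2 (0.40), a pocket protein of resting cells, were the 2 that rose over the course. Against MYC-OFF, however, RBL2 was lower in MYC-ON in 25 of 28 pairs and CDKN1A in 17 of 28. CDKN1B, another CDK inhibitor on the list, was lower in MYC-ON in 28 of 28 pairs. Of 20 mitotic genes 17 were lower and 0 higher, with a median of -0.62. These lists moved with the members, and their part in the members' fall was not tested.

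The rises in SHEP MYC-OFF were small. POLA2 held 12.5 to 18.98 TPM early and 15.6 to 27.4 TPM late, with a fitted change of 0.49 ± 0.14 (SE, adjusted p = 0.0130). POLD1, the catalytic subunit of polymerase delta, held 31.6 to 39.5 and 39.9 to 52.6 TPM and did not overlap between the windows, with 0.44 ± 0.11 (SE, adjusted p = 0.00511). PCNA did not overlap either, and its fitted change is given above. TYMS, FEN1, MCM2 and MCM7 were the other 4. Without replicate 2, 2 members were called higher, and without replicate 1, 0 were, with POLD1 and TYMS the 2 that passed in replicate 1 alone.

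No member had a called 24 h rhythm in any group. The fit used a cosine and a sine term at 24 h with a trend for each replicate, and in SHEP 0.0911% of all genes were called without 4OHT and 0.021% with it, and in SKNAS 0% and 0%. The lowest adjusted p of a member, by limma's F test, was 0.199 in SHEP MYC-OFF (ORC3) and 0.225 in SHEP MYC-ON (PRIM2). At an unadjusted p under 0.05 there were 9 and 17 of 47 members in the SHEP groups, against 10.4% and 10.7% of all genes, and 0 in both SKNAS groups. The SHEP counts moved with the period. At 20 h they were 3 and 0, against 7.57% and 4.46% of all genes. At 28 h they were 22 and 10, against 11.7% and 9.16%, so the MYC-OFF share of members (46.8%) lay well above that of all genes. With the library median as a covariate they were 12 and 8, against 12.2% and 10.8%. Again no member had an adjusted call. The dip of MYC-OFF at CT48 to CT52 and the fall of MYC-ON after CT52 are described above as parts of the course. With so few genes called in any group, these fits could not decide whether either belongs to a daily cycle.

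In SKNAS fewer members passed, and the count depended on the scaling of the libraries. On the deposited TPM 3 members were higher and 5 lower in MYC-ON, against 13.7% higher and 34.4% lower of all genes. The median of all genes was -0.29 on the log2 scale and that of the members -0.11. After rescaling by the median of ratios, 18 members were higher and 2 lower, against 27.9% and 23.4% of all genes, with the median of all genes at 0.043 and of the members at 0.27. With the library median as a covariate the counts were 17 and 4, against 28.3% and 26.1% of all genes, and in the 10 MYC-OFF and 3 MYC-ON libraries with a median of at least 3.8 they were 17 and 4, against 21% and 27.5%. The rescaling moved all genes together, so the sign of the members' median follows the scaling, while the members' median lay above that of all genes both before and after it. The mean library median fell from 4.23 at CT24 to CT36 to 3.56 from CT64 on in MYC-OFF and from 3.60 to 3.14 in MYC-ON.

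CDT1, DBF4 and POLD2 were higher under each of these scalings. CDT1, the loader, had 7.603, 17.5 and 21.7 TPM in MYC-OFF and 16.3, 25.6 and 37.96 TPM in MYC-ON, higher in 11 of 13 pairs of the same CT, with a log2 change of 0.61 ± 0.14 (SE, adjusted p = 0.00193). DBF4 had 13.5, 39.1 and 54.4 TPM and 24.3, 59.2 and 117 TPM, higher in 10 of 13 pairs, with 0.63 ± 0.22 (SE, adjusted p = 0.0268). POLD2 had 113, 225 and 249.8 TPM and 235, 298 and 458 TPM, higher in 12 of 13 pairs, with 0.54 ± 0.13 (SE, adjusted p = 0.00384). The ranges overlapped for all 3 genes.

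GINS3 was the only member called lower under each scaling. It had 14.7, 31.4 and 37.7 TPM in MYC-OFF and 8.82, 15.7 and 22.5 TPM in MYC-ON, lower in 13 of 13 pairs, with -0.90 ± 0.13 (SE, adjusted p = 3.62e-05). Its partner GINS4 had 5.35, 32.9 and 59.1 TPM and 2.36, 10.8 and 44.2 TPM, lower in 10 of 13 pairs, with -1.15 ± 0.33 (SE, adjusted p = 0.0101) on deposited TPM. It was still called lower after rescaling (-0.81) and with the covariate (-0.32), but not in the libraries with a high median (-0.24). GINS1 and GINS2 of the same ring of 4 subunits were not called on deposited TPM (-0.13 and -0.017), and GINS1 was called higher after rescaling and with the covariate.

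MCM5 had 15.01, 41.3 and 46.8 TPM and 12.04, 24.4 and 39.1 TPM, lower in 10 of 13 pairs, with -0.53 ± 0.18 (SE, adjusted p = 0.0213), and -0.17, not called, after rescaling. PRIM2, the large primase subunit, had 15.6, 35.6 and 42.5 TPM and 12.6, 21.1 and 36.8 TPM, with -0.45 ± 0.16 (SE, adjusted p = 0.0286), and -0.086, not called, after rescaling. RRM1 was called lower on deposited TPM (-0.32) and was at 0.048 after rescaling.

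**Figure D4:**
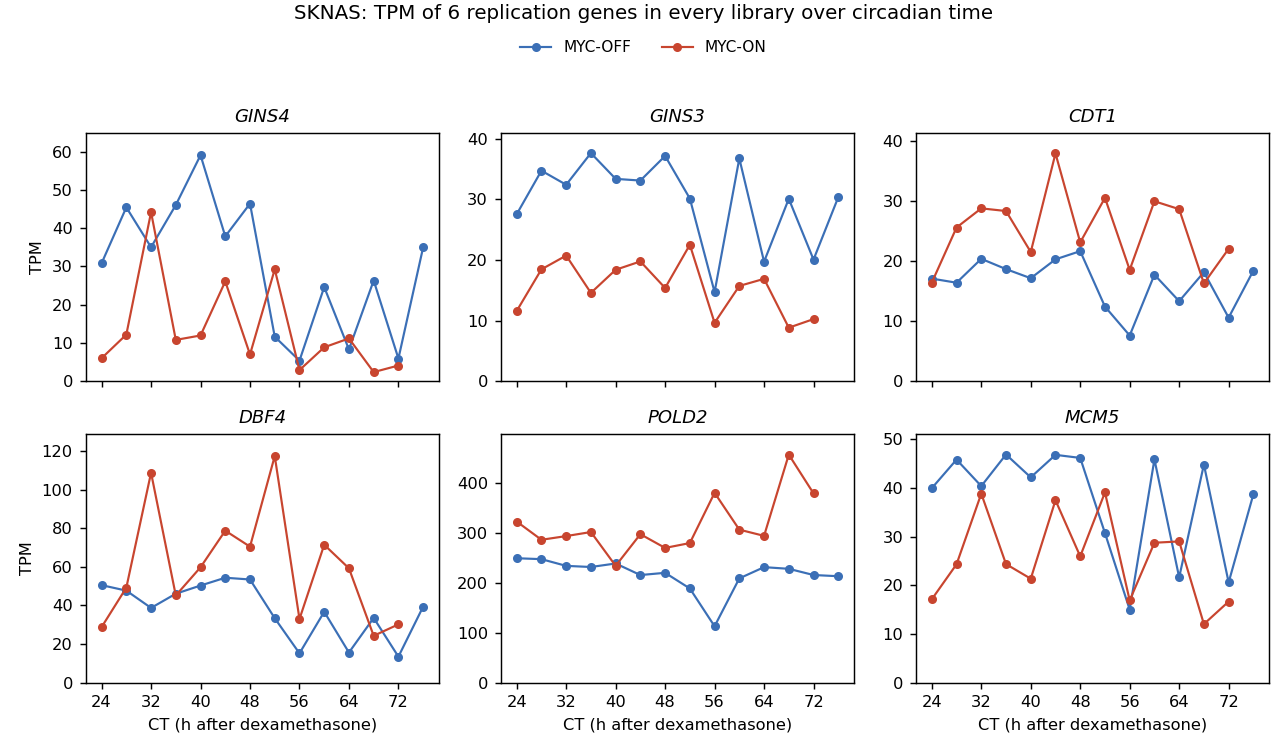
TPM (vertical axis, from 0) of 6 members in each SKNAS library against CT in hours (horizontal axis), MYC-OFF in blue and MYC-ON in red, 1 experiment per condition. GINS3 is lower in MYC-ON at each of the 13 shared CTs, POLD2 is higher at 12 of them, and GINS4, DBF4 and MCM5 swing widely between neighbouring CTs.

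**Figure D5:**
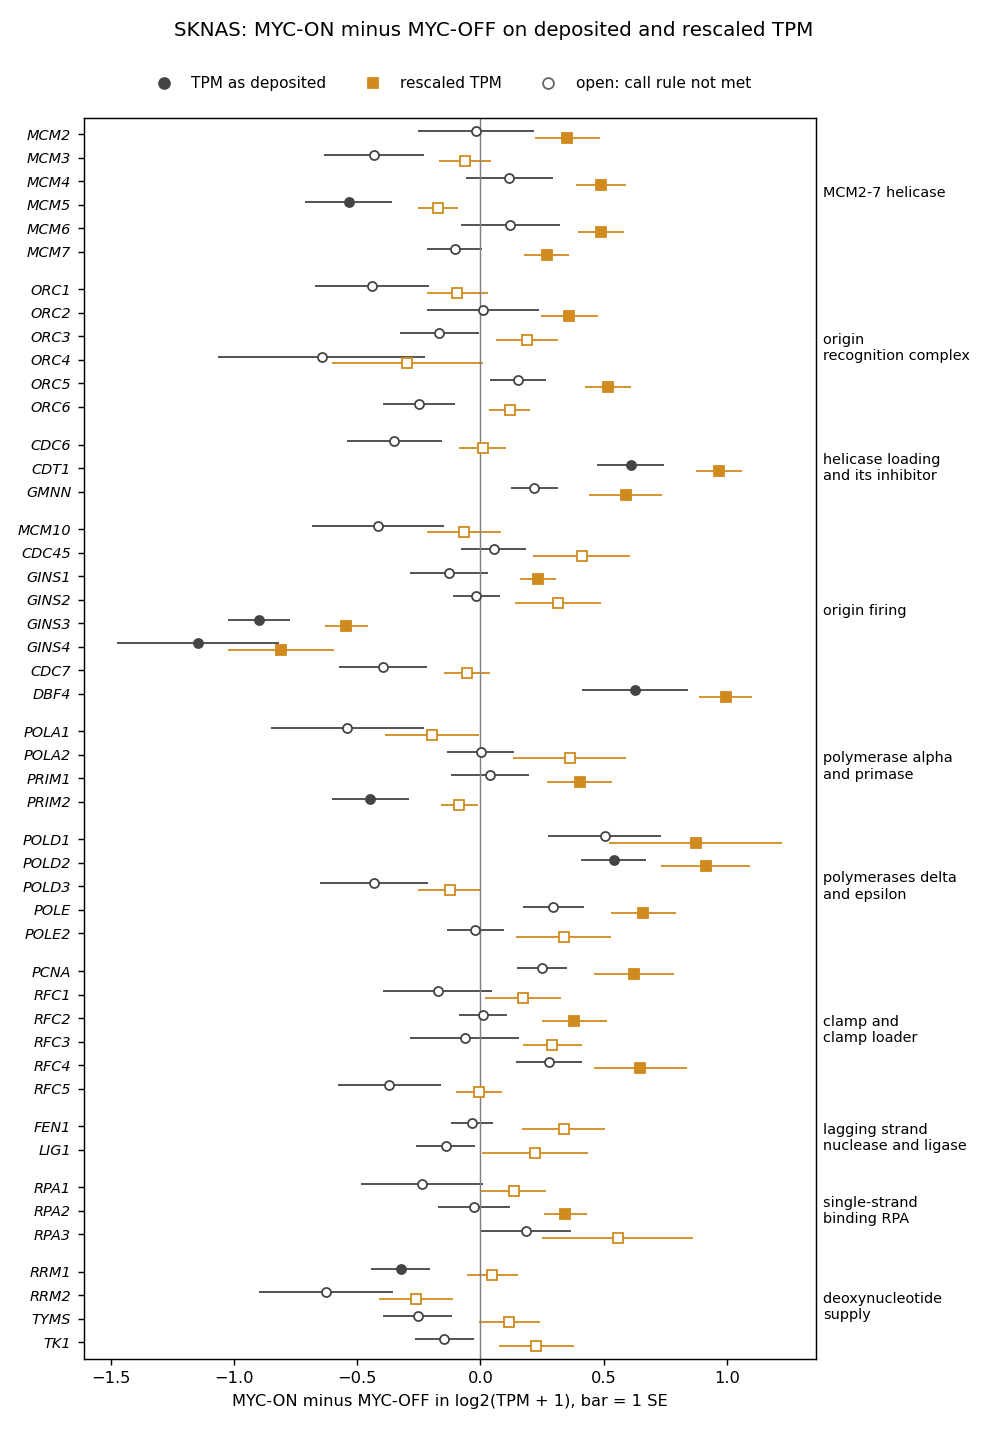
MYC-ON minus MYC-OFF in log2(TPM + 1) (horizontal axis) for each of the 47 members by role (vertical axis) in SKNAS, on deposited TPM (grey circles) and on TPM rescaled by the median of ratios (orange squares). Bars are 1 SE and open symbols did not meet the call rule. Every orange square lies to the right of its grey circle, and the calls change from 3 higher and 5 lower to 18 higher and 2 lower.

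No member had a called change over CT in SKNAS. Over all genes 0.151% were called in MYC-OFF, 0.166% in MYC-ON and 0.0792% for the difference of the slopes. At an unadjusted p under 0.05 there were 11 members in MYC-OFF, 10 of them lower, and 0 in MYC-ON and for the difference, against 35.5%, 7.28% and 2.9% of all genes. The members' median fitted change was -0.67 in MYC-OFF and -0.49 in MYC-ON, close to the medians of all genes (-0.66 and -0.43), and single members reached -2.05 ± 1.037 (SE, adjusted p = 0.145) for ORC4 in MYC-OFF and -1.73 ± 0.92 (SE, adjusted p = 0.610) for GINS4 in MYC-ON. The library medians, given above, fell along with these values. RRM2 was at -1.89 ± 0.64 in MYC-OFF and -1.08 ± 0.72 in MYC-ON (SE). The fitted change of TK1 was -0.34 ± 0.28 in MYC-OFF and -0.24 ± 0.31 in MYC-ON (SE), and that of FEN1 -0.14 ± 0.17 and -0.093 ± 0.19. FEN1 held 90.2, 107 and 134 TPM over the SKNAS MYC-ON libraries against 28.4, 82.2 and 120.3 TPM over those of SHEP. With 1 experiment per condition, changes as large as those called in SHEP did not pass in SKNAS, and whether the slopes differed between the lines was not tested.

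The MYC-ON effect itself was compared between lines by an interaction over all 83 libraries. It differed for 19 members, 3 with the higher effect in SKNAS and 16 with the lower, against 13.4% and 38.1% of all genes, so both shares lay below the background. CDT1 (difference 0.57 ± 0.14 (SE, adjusted p = 0.000506)), geminin (0.34) and LIG1 (0.42) were the 3 with the higher effect in SKNAS. ORC4 (-1.30 ± 0.27 (SE, adjusted p = 7.68e-05)) and GINS4 (-1.21 ± 0.26 (SE, adjusted p = 0.000129)) differed most in the other direction. ORC4 had 3.02, 33.9 and 49.98 TPM in SKNAS MYC-OFF and 2.82, 16.99 and 66.6 TPM in MYC-ON, a change of -0.64 ± 0.42 (SE, adjusted p = 0.215) that was not called, and with the library median as a covariate the difference between lines was -0.26 and not called.

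After rescaling the interaction counts became 11 and 9, against 25.5% and 24.4% of all genes, and with the covariate 4 and 9, against 21.8% and 19.8%. CDT1 on the higher side and GINS3, GINS4, PRIM2 and RFC5 on the lower side were called under all 3. On deposited TPM no member was called in opposite directions in the lines. DBF4 and POLD2 were called higher in both, and MCM5 and GINS3 lower in both, of 31 members called in either line. MCM5 was not called in SKNAS with the other 3 scalings. Under each of those 3 scalings 10 members were called higher in SKNAS. Among them were MCM2, MCM6, ORC2 and RPA2, which were also higher in SHEP on deposited TPM. RPA3, higher in SHEP, was called lower in SKNAS with the covariate (-0.24).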

How the data were processed

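RNA-seq of SHEP and SKNAS cells was analysed in 83 libraries. Per the labels and the study's methods, the authors quantified reads against GENCODE transcripts of GRCh38 with Salmon 1.3.0 and summarised them to genes with Tximport, and the deposited values are TPM per gene, with a total of 1000000 in each library. TPM keeps no read depth, so the depth per library is unknown and no counting error could be given. A large change in a few abundant genes moves the TPM of all others.

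Genes with a mean of at least 1 TPM in the libraries of a fit were tested in limma 3.58.1 (R 4.3.3, empirical Bayes) on log2(TPM + 1), a scale that understates changes of low genes. MYC-ON was compared with MYC-OFF per line with CT as a factor, the lines by an interaction, and the course by a linear term in CT, and p-values were Benjamini-Hochberg adjusted over all genes tested. A call needed an adjusted p no higher than 0.05 and a log2 change of 0.15 or more in size (24 h rhythm: the adjusted p alone). The fits assume independent residuals, while libraries of 1 experiment are serial. Replicate numbers name the 2 SHEP experiments and therefore pair the conditions; trend fits have an intercept for each experiment and condition. Each fit was run on simulated data with independent residuals. These data held neither serial dependence nor shifts of whole libraries, so they do not check the fits against either.

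Members, comparison lists and tests were chosen with earlier results of these data known. Values by library are given for up to 4 called members per direction and line with the largest MYC-ON change, up to 3 per direction and group with the largest change over CT, and the highest and lowest member of each role. The alternatives were a pseudocount of 0.1, no filter, rescaling by the median of ratios, the library median as a covariate, the replicate block, leaving out each SHEP replicate, experiment means, the SKNAS libraries with a median of at least 3.8, late against early times and periods of 20 h and 28 h. Fits at CT24 to CT36, from CT64 on, and without 3 SHEP MYC-ON libraries that stood apart were added after seeing the data. Promoter words were searched in RefSeq windows. No columns were left out.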

Additional observations from a re-analysis of the deposited data

Results flagged for a closer look

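The change over CT differed between MYC-ON and MYC-OFF in SHEP for 38 members in the limma test of the difference of slopes (37 lower, 1 higher), and among the members described by library the differences over 52 h on the log2 scale were -2.08 for TK1, -1.99 for FEN1, -1.85 for RRM2, -1.76 for PCNA, -1.50 for CDC6, -1.36 for GINS4, -1.34 for POLA2, -1.26 for GINS3, -1.25 for MCM5, -1.20 for LIG1, -1.10 for POLD1, -1.08 for MCM6, -1.05 for CDT1, -0.44 for DBF4 and 0.47 for RFC1. DBF4 was not called in either replicate alone and RFC1 was not called without replicate 2.

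The MYC-ON effect differed between SKNAS and SHEP for 19 members in the interaction (3 higher and 16 lower in SKNAS). Among the members described by library the differences were 0.57 for CDT1, 0.42 for LIG1, -0.49 for MCM6, -0.52 for PRIM2, -0.56 for RFC1, -0.57 for RRM2, -0.65 for GINS3, -1.21 for GINS4 and -1.30 for ORC4. The library medians of SKNAS were lower in MYC-ON (mean 3.52) than in MYC-OFF (mean 3.92), and a link between them and the differences of single members was not tested. After rescaling MCM6, RFC1 and RRM2 were no longer called.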

How the results depend on the processing

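In SHEP the 20 higher and 7 lower members over the whole course were the same in number with the replicate block. They became 13 and 4 with experiment means as replicates, 13 to 18 and 4 with each replicate left out, and 2 lower with the library median as a covariate. At CT24 to CT36 there were 34 higher and 2 lower, where ORC1 (0.17), TK1 (0.058), FEN1 (0.34) and GINS3 (0.10) turned positive and RPA3 (-0.0060) negative. From CT64 on there were 5 and 28, where RFC2 (-0.15), POLD1 (-0.22), MCM2 (-0.52), POLD3 (-0.026), CDC45 (-0.29), RFC5 (-0.098), RPA2 (-0.18), RPA1 (-0.067), RFC3 (-0.051), POLE (-0.27) and PRIM1 (-0.22) turned negative. The 7 rises in MYC-OFF became 4 with no filter, 11 after rescaling and 0 to 2 with a replicate left out. The 39 falls in MYC-ON ranged from 33 to 38 and the 2 rises from 0 to 4 with a replicate left out, and RFC1 was at -0.013 without replicate 2 and 0.82 without replicate 1. Without the 3 MYC-ON libraries of replicate 2 with the most genes above 0, the 2 rises and the 1 more positive slope each became 0. The 37 more negative slopes ranged from 30 to 36 with a replicate left out. The 1 more positive slope became 0 with no filter, with no replicate block and late against early, and 0 to 1 with a replicate left out.

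In SKNAS the 3 higher and 5 lower members became 18 and 2 after rescaling, 17 higher with the covariate and 17 higher in the libraries with a high median, with RRM1 at 0.048 and 0.027 after the first and the last. They became 0 and 1 at CT24 to CT36 and 0 and 0 from CT64 on, with few libraries. The interaction counts of 3 and 16 became 11 and 9 after rescaling and 9 lower with the covariate, where ORC2 was at 0.13. Apart from the scalings and the fewer libraries, the cause was not tested. With no depth in TPM, counting error could not be separated from the spread between libraries.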
